A study of Rattus norvegicus with 6 samples.

Results

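The genes described here are 45 genes of the G2 phase and of mitosis, taken by symbol from a table of 40456 genes measured by RNA sequencing in H9c2 cells. All 45 symbols were found in the table, and all 45 had enough reads to be tested. They were named by symbol and function, and the rule itself uses no measured value. The list was, however, chosen with earlier results of these data known. It is therefore not independent of them, and the counts of members below are a description. Each member had at least 12 counts in every library, so every member also passed the filter on low counts in the control libraries alone.

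H9c2 (2-1) is a wild-type cardiomyoblast line derived from embryonic rat heart. Cells of both groups were kept for 5 days in medium with 1% serum and 1 µM retinoic acid, a protocol that takes the line out of growth medium and towards a muscle-like state. A gapmer was then delivered with Lipofectamine at 25 nM, and transfection lasted 24 h. A gapmer is an antisense DNA strand with modified ends, here locked nucleic acids, whose RNA target is cleaved by RNase H. The 3 control libraries received a negative control gapmer, and the 3 others one that targets Tug1, a long non-coding RNA, so both groups carry the transfection. Libraries are named below by their replicate number. The labels do not say whether libraries of a group came from separate cultures, so p-values measure the spread between these libraries, which may be technical. The 2 oligonucleotides are shown 5′ to 3′ because they are the only stated difference between the groups.
Tug1 gapmer: attcagtagacagcta
control gapmer: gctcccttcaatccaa

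Cells enter mitosis when cyclin-dependent kinase 1 (Cdk1) bound to B-type cyclins becomes active, and they leave it when the anaphase-promoting complex marks those cyclins and securin for destruction. Most transcripts of this programme are scarce in G1 and in non-dividing cells and accumulate late in the cell cycle. Their promoters are known for a short element called the cell cycle genes homology region (CHR), read by the MuvB complex, which represses with DREAM proteins in resting cells and activates with B-Myb and Foxm1 in dividing cells. CCAAT boxes, bound by NF-Y, often lie close by. In differentiating muscle cells the programme is normally shut down as cells leave the cycle.

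Total counts were 12978548 to 13544337 per library, and levels are given in CPM, counts relative to the library total after TMM scaling between libraries. Members had mean levels of 1.47 to 51.6 CPM. CPM is not corrected for transcript length, so levels are not compared between genes. Tug1 itself, the targeted RNA, stood at 54.7, 52.0 and 55.4 CPM in control libraries 1 to 3 and at 11.9, 11.2 and 12.5 CPM in Tug1 gapmer libraries 1 to 3. The log2 difference was -2.19 with an SE of 0.0786 (edgeR, adjusted p 4.39e-16), and every Tug1 gapmer library was below every control library. The labels call the cells cardiomyocytes, but of 10 cardiomyocyte markers only Tnnt2 (380 CPM) and Actc1 (13.6 CPM) exceeded 1 CPM on average, Myh6, Myh7, Nkx2-5 and Ryr2 had at most 3 counts in any library, and Tnni3, Nppa and Myl7 at most 4. The 3 cardiomyocyte markers that could be tested were all higher after the Tug1 gapmer, Tnnt2 by 0.24, Actc1 by 0.97 and Myl2 by 1.23 on the log2 scale, and the list summed to 345 to 380 CPM in controls and 408 to 460 CPM after it. The call of Myl2 ended without control library 3 (adjusted p 0.0521) or Tug1 gapmer library 1 (0.0947). Of 10 skeletal muscle markers, 9 were tested, 8 were higher and 1 (Myod1) was lower after the Tug1 gapmer, with summed levels of 938 to 958 CPM in controls and 1389 to 1482 CPM after it, and Myf5 had at most 1 count. The call of Myod1 ended with an offset for gene length (adjusted p 0.106). For comparison, 30.8% of all tested genes were called higher and 30.9% lower at an adjusted p under 0.05 in edgeR. The part of the muscle markers in the results below was not tested. Ptprc, the defining leukocyte marker, had 0 counts. The leukocyte list, mostly Cd68, summed to between 3.22 and 5.42 CPM in controls and between 6.74 and 9.02 CPM after the Tug1 gapmer. Of 5 endothelial markers, Pecam1, Cdh5 and Kdr had at most 2 counts, Vwf at most 11 and Tek at most 46 (2.72 CPM on average). Tek alone of these was tested and did not pass (log2 fold change -0.30, edgeR adjusted p 0.279). Of 8 smooth muscle and fibroblast markers 7 were tested, and 3 (Myh11 at a log2 fold change of 1.07, Acta2 at 0.33 and Dcn at 0.57) were higher and 1 (Col1a1, -0.23) lower. Their sum, 22853 to 24031 CPM in controls and 19388 to 21242 CPM after the Tug1 gapmer, was mostly Col1a1. These counts stand beside the same shares of all tested genes, and the part of these lists in the results was not tested either.

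The comparison asked how the mitotic genes stood in cells given the Tug1 gapmer against cells given the control gapmer. Of the 45 members, 30 were higher after the Tug1 gapmer at an adjusted p under 0.05 in edgeR's quasi-likelihood test, and 0 were lower. Of all 14216 tested genes, 30.8% were higher and 30.9% lower by the same rule, 61.7% in all. The count of lower members was also 0 at an unadjusted p under 0.05, and 0 by DESeq2's Wald test and by limma-voom. The median log2 fold change of the members was 0.55, against 0.0043 for all tested genes. At least 1.5-fold higher and past the threshold were 20 members, a size reached by 13.1% of all tested genes, and 5 members (Top2a, Tpx2, Bub1b, Plk1 and Nusap1) were at least 2-fold higher, against 4.59%. By the same sizes 0 members were lower, against 12.6% and 5.21% of all tested genes. In 36 members all 3 Tug1 gapmer libraries lay above all 3 control libraries (33.0% of all tested genes), in 1 they lay below (32.6%), and in 8 the groups overlapped. In bulk RNA such as this, more cells in G2 and mitosis and more RNA per cell cannot be told apart.

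**Figure D1:**
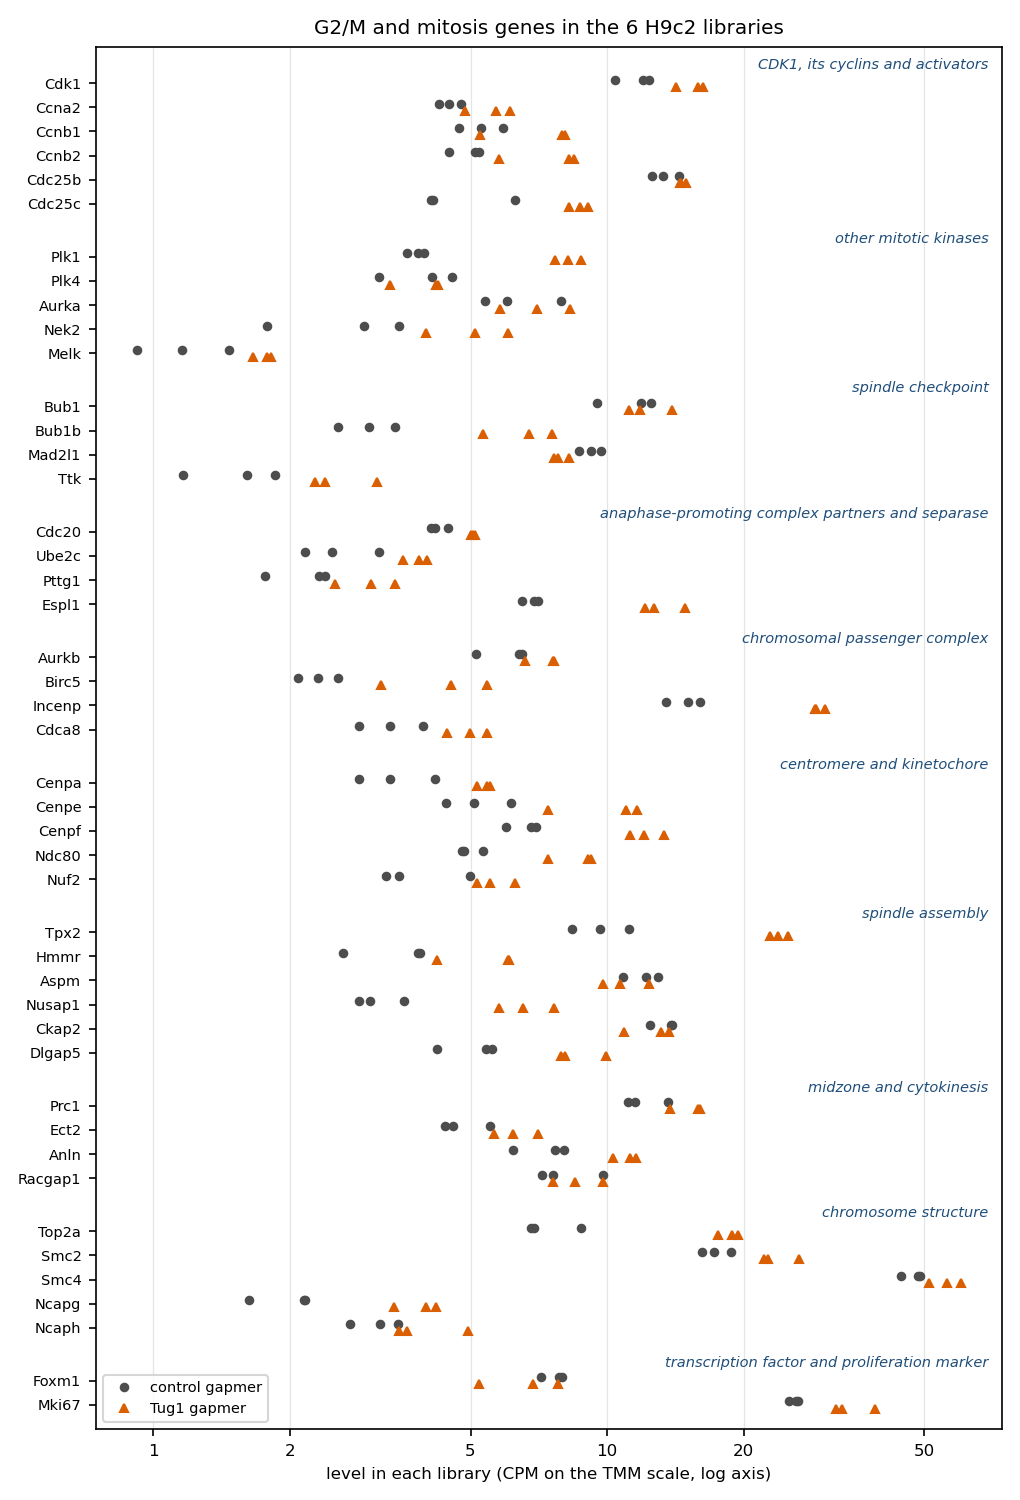
Level of each of the 45 members in each library, in CPM on a log axis, by role; circles are the 3 control gapmer libraries and triangles the 3 Tug1 gapmer libraries. The triangles lie to the right of all circles in 36 members and to the left in 1, Mad2l1.

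Added up, the 45 members took 342, 342 and 349 CPM in control libraries 1 to 3, against 486, 455 and 511 CPM in Tug1 gapmer libraries 1 to 3. The means were 344 ± 4.02 and 484 ± 27.9 CPM (SD, n = 3), and the knockdown mean was 141% of the control mean. The 3 control sums lay close together, and Tug1 gapmer library 2 was the lowest of its group. That library was the lowest of the 3 Tug1 gapmer libraries in 27 of the 45 members, replicate 1 in 12 and replicate 3 in 6. Without it, 29 members were called higher. The sum of 42 G1/S and replication genes, by contrast, was lower after the Tug1 gapmer, at 859, 882 and 880 CPM in control libraries 1 to 3, against 807, 777 and 810 CPM in Tug1 gapmer libraries 1 to 3. Genes at high levels weigh most in this sum. Among them Tyms fell from a mean of 58.8 to 34.0 CPM, Mcm2 from 63.4 to 46.4 and Slbp from 82.2 to 67.8. The median log2 fold change of the list was 0.04, with 11 genes called higher and 14 lower.

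**Figure D2:**
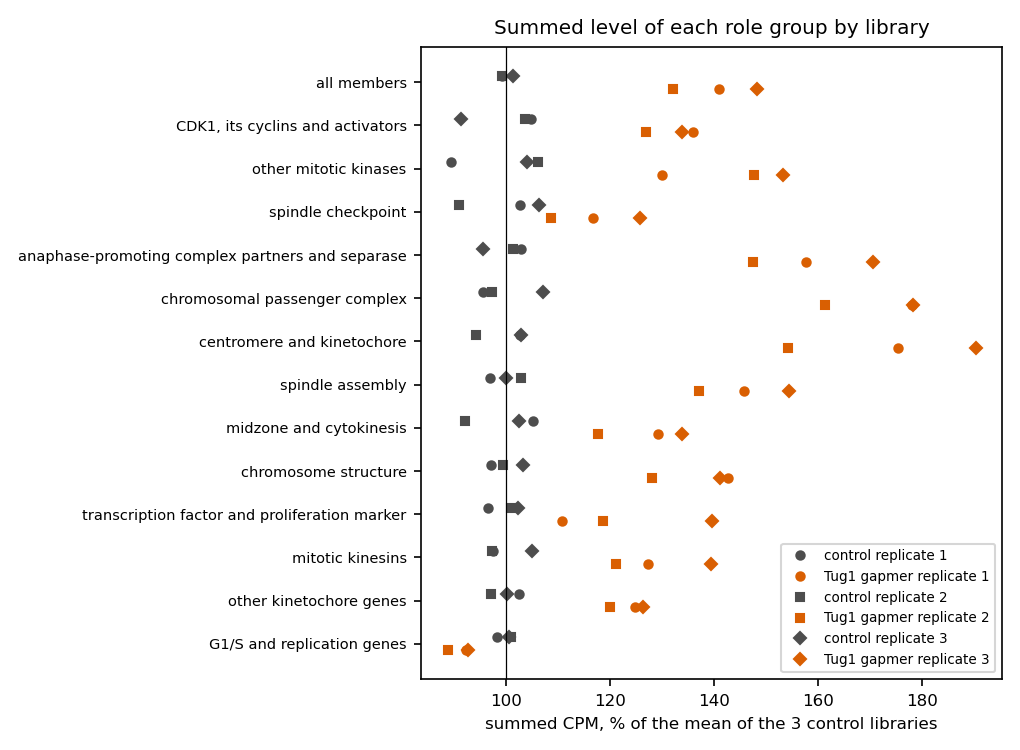
Summed CPM of each role group and of 3 related lists, as a percentage of the mean of the 3 control libraries; each point is 1 library. The summed members averaged 141% of control after the Tug1 gapmer, and the G1/S and replication genes 91.3%.

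The promoters of the members were searched for the elements known from this programme. As such genes are known for these elements, a high share follows from the choice of list and is no result about the gapmer. RefSeq promoter windows (250 bases before to 50 bases after the annotated start, GRCr8 assembly) were available for 38 of the 45 members; Ccna2, Aurkb, Ube2c, Incenp, Tpx2, Racgap1 and Foxm1 had no entry. The CHR was searched as TTTGAA and, in its other common form, as TTTAAA, and the NF-Y box by the letters of its name. E2F letters were TTTCCCGC, TTTCGCGC, TTTGCCGC or TTTGGCGC. Both strands were searched, and none of the 3 kinds contains another. CHR letters stood in 35 of the 38 windows (92.1%), against 19.4% of the windows of 10529 tested genes and 27.9% of all 27457 windows in the table. Some of these matches lie after the start. CHR letters wholly before the start stood in 28 of the 38 (73.7%, against 17.5% and 25.3%). CCAAT letters stood in 28 (73.7%, against 37.8% and 37.7%), and both kinds together in 26 (68.4%, against 7.6% and 11.1%). E2F letters stood in 1, that of Cdk1 (2.63%, against 3.95% and 2.25%). In 34 windows of the G1/S and replication genes CCAAT letters stood in 20 (58.8%), E2F letters in 16 (47.1%) and CHR letters in 7 (20.6%).

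Among the members with a window, 22 of the 27 called higher held both CHR and CCAAT letters, as did 4 of the 11 not called. CHR letters wholly before the start stood in 22 of the 27 and in 6 of the 11. Of 774 other tested genes with both, 31.5% were higher and 27.8% lower. Of 5311 other tested genes with neither, 31.7% were higher and 32.3% lower. A match of letters is a description of the window and not a binding site.

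The 150 bases before the annotated start are shown for 6 members that rose and 2 that were not called, 5′ to 3′ on the strand of the gene, with CHR and CCAAT letters in capitals. Matches on the opposite strand read TTCAAA for the CHR, and for CCAAT they read ATTGG. Top2a, Plk1, Nusap1, Espl1 and Cenpe had the largest rises among the members of their role groups that have a window, and Ccnb1 is the B-type cyclin with 2 CCAAT matches ahead of its CHR letters. They are a selection: Cdc25c, Bub1b, Birc5, Anln and Mki67 led other role groups in the same way and are not shown. Of these, Bub1b and Anln held CHR letters and no CCAAT letters, whereas all 6 risen members shown held both kinds. Aspm and Melk stand for members that were not called, with and without such letters. Melk is not typical, as it was the only member whose window held neither kind, and 9 of the 11 uncalled windows held CHR letters.
Top2a (chr10:84473094-84473243, - strand): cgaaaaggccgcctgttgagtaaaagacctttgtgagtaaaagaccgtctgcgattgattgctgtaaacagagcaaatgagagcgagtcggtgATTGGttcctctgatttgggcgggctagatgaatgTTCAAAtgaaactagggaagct
Plk1 (chr1:186147508-186147657, + strand): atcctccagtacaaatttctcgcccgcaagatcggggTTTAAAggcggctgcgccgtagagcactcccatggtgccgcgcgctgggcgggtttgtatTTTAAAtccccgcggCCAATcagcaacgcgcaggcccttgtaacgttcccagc
Nusap1 (chr3:127057145-127057294, + strand): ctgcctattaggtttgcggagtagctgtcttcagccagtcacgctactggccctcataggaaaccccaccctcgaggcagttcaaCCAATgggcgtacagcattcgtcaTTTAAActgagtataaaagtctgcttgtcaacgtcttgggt
Espl1 (chr7:135302566-135302715, + strand): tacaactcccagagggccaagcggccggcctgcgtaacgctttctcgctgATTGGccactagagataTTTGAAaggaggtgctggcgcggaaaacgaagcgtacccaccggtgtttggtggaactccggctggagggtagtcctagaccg
Cenpe (chr2:226310907-226311056, + strand): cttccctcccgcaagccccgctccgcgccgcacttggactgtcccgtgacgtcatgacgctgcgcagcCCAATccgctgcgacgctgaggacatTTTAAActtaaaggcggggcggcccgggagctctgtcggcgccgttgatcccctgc
Ccnb1 (chr2:33655226-33655375, - strand): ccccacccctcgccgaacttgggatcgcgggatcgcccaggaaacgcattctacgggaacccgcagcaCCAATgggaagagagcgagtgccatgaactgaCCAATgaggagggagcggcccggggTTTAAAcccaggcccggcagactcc
Aspm (chr13:53625434-53625583, + strand): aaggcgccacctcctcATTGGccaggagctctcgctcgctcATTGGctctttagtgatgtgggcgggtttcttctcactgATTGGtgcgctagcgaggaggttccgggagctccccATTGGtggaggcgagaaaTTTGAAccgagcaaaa
Melk (chr5:63336001-63336150, + strand): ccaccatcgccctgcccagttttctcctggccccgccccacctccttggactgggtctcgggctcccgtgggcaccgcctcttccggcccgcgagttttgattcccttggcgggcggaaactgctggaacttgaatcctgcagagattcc

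In Top2a the CHR letters began 22 bases before the start and the nearest CCAAT letters 57 bases before it. Cenpe had its CCAAT letters at 82 and its CHR letters at 56 bases before the start, and Nusap1 at 65 and 41. Espl1 had CCAAT letters at 100 and CHR letters at 83. Ccnb1 had CCAAT letters at 82 and 50 and CHR letters at 25 bases before the start. Plk1 had CHR letters on both sides of its CCAAT letters. They began at 113 and 53 bases before the start and again 6 bases after it, outside the stretch shown, with the CCAAT letters at 38 before it. Aspm, which was not called, held 4 CCAAT matches and 2 CHR matches in its whole window.

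**Figure D3:**
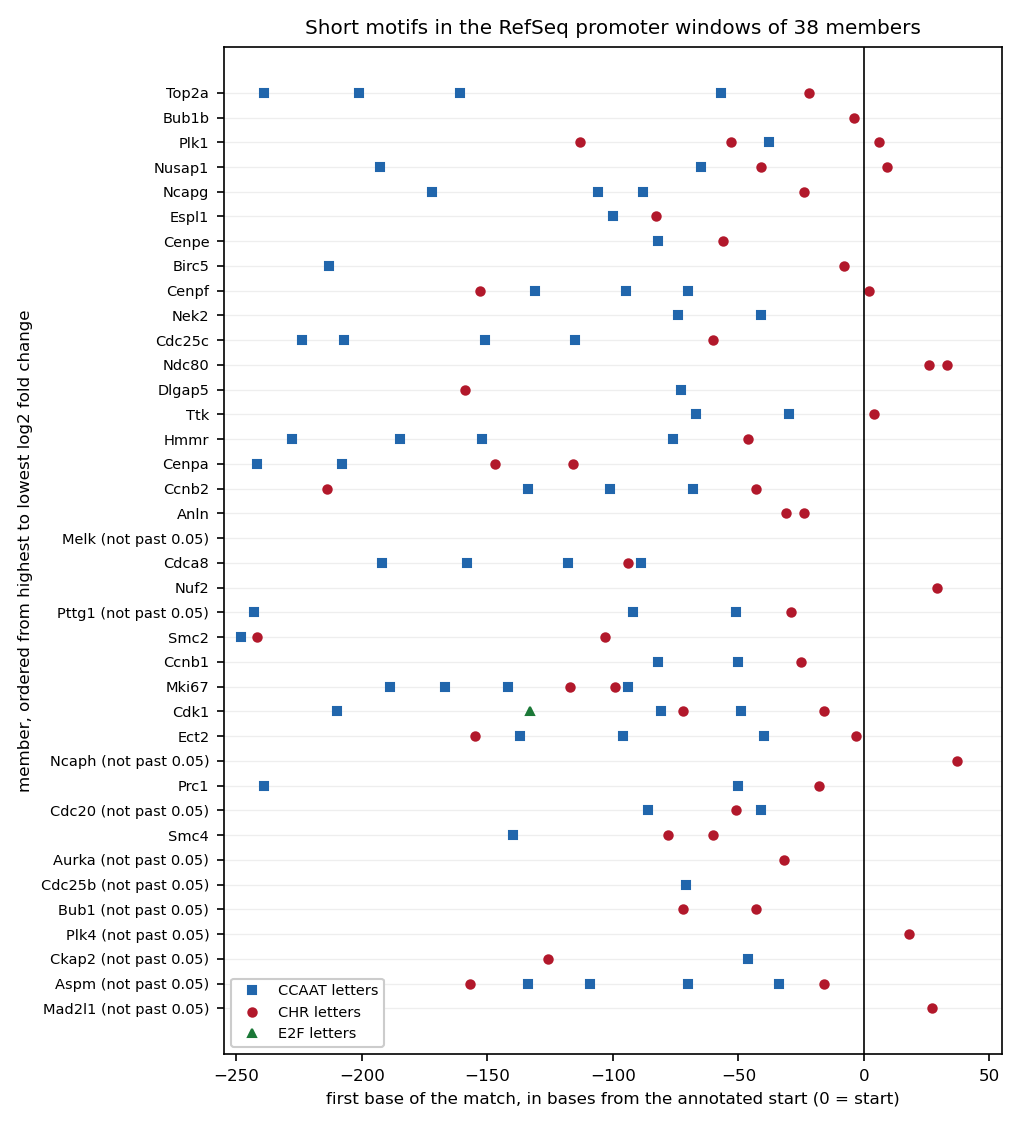
Position of CHR (circles), CCAAT (squares) and E2F (triangle) letters in the promoter windows of the 38 members with an entry, as the first base of the match counted from the annotated start; members run from the highest to the lowest log2 fold change. CHR letters appear in 35 rows, and the row of Melk is empty.

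Cdk1 and its partners drive entry into mitosis. Of 6 genes in this group 4 were higher. This count and those of the role groups below stand beside the 30.8% of all tested genes called higher. The groups are small, so their counts are not compared with each other. Cdc25c, a phosphatase that removes the inhibitory phosphates from Cdk1, stood at 4.14, 6.27 and 4.09 CPM in control libraries 1 to 3 and at 8.70, 9.10 and 8.23 CPM in Tug1 gapmer libraries 1 to 3. All knockdown values were above all control values, with a log2 fold change of 0.84 (edgeR, SE 0.162, adjusted p 9.46e-05). Ccnb2, which encodes cyclin B2, had 5.22, 5.11 and 4.47 CPM in controls and 8.26, 5.77 and 8.46 CPM after the Tug1 gapmer. The groups did not overlap, although Tug1 gapmer library 2 was close to the controls (0.60, SE 0.166, adjusted p 0.00314). Ccnb1, which encodes cyclin B1, had 5.91, 5.26 and 4.70 CPM in controls and 7.97, 5.25 and 8.08 CPM after the Tug1 gapmer. Here Tug1 gapmer library 2 lay inside the control range, and Ccnb1 was the only called member whose groups overlapped (0.42, SE 0.172, adjusted p 0.0365). Cdk1 itself was higher by 0.42 (SE 0.108, adjusted p 0.00195). Ccna2, the cyclin of S phase and G2, at 0.30 (95% interval -0.04 to 0.65), and Cdc25b, the phosphatase that starts Cdk1 activation, at 0.13 (-0.08 to 0.34), did not pass.

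Among the other mitotic kinases 2 of 5 were higher. Plk1, the kinase needed for centrosome maturation, spindle assembly and cytokinesis, had 3.83, 3.95 and 3.62 CPM in control libraries 1 to 3 and 7.68, 8.21 and 8.76 CPM in Tug1 gapmer libraries 1 to 3. The lowest knockdown value was well above the highest control value, and the fold change was 2.16 (log2 1.11, SE 0.152, edgeR adjusted p 1.27e-06). Nek2, a kinase that helps centrosomes separate, had 2.91, 1.78 and 3.47 CPM in controls and 3.99, 5.10 and 6.04 CPM after the Tug1 gapmer, with no overlap (0.88, SE 0.225, adjusted p 0.00164). Plk4, which controls centriole duplication, was at -0.004 (95% interval -0.41 to 0.40). The log2 fold change of Plk4 turned positive with library totals in place of TMM (0.05), also without a call. Aurka, the kinase of spindle poles, was at 0.13 (-0.21 to 0.47), and Melk at 0.56 (-0.04 to 1.17). None of these 3 passed the threshold, and the interval of Melk reaches a doubling, log2 1, from a level of 1.18 CPM in controls.

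The spindle checkpoint holds cells in metaphase until every chromosome is attached. Its 4 genes differed among themselves. Bub1b, whose product BubR1 is part of the inhibitor of the anaphase-promoting complex, had 2.99, 3.41 and 2.55 CPM in controls and 6.74, 5.33 and 7.55 CPM after the Tug1 gapmer. All 3 knockdown values were above all controls, a fold change of 2.19 (log2 1.13, SE 0.188, edgeR adjusted p 1.70e-05). Ttk, the kinase Mps1 at the top of the checkpoint, had 1.61, 1.16 and 1.85 CPM in controls and 2.39, 3.11 and 2.27 CPM after the Tug1 gapmer, a small but complete separation at low counts (0.74, SE 0.266, adjusted p 0.0187). Bub1, a kinetochore kinase, was at 0.12 (95% interval -0.14 to 0.38), and its groups overlapped. Mad2l1, the checkpoint protein that binds Cdc20, was the only member whose 3 knockdown values all lay below the controls, at 8.26, 7.62 and 7.78 against 9.20, 8.67 and 9.72 CPM, but its log2 fold change of -0.22 (-0.48 to 0.04, adjusted p 0.134) did not pass.

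Anaphase begins when the anaphase-promoting complex, with Cdc20 and the ubiquitin-conjugating enzyme Ube2c, destroys securin (Pttg1) and frees separase (Espl1), which cuts cohesin. Espl1 had 6.90, 7.04 and 6.48 CPM in control libraries 1 to 3 and 12.7, 12.1 and 14.9 CPM in Tug1 gapmer libraries 1 to 3. The controls were tightly grouped and every knockdown value was far above them (0.96, SE 0.126, edgeR adjusted p 6.52e-07). Ube2c had 3.14, 2.48 and 2.16 CPM in controls and 3.84, 3.55 and 4.00 CPM after the Tug1 gapmer, with control library 1 closest to the knockdown values (0.55, SE 0.209, adjusted p 0.0267). Cdc20 (0.25, 95% interval -0.09 to 0.60) and Pttg1 (0.46, -0.02 to 0.95) did not pass, although in both all knockdown values were above all control values.

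The chromosomal passenger complex corrects faulty attachments and guides cytokinesis; it joins the kinase Aurkb to the scaffold Incenp and to survivin (Birc5) and borealin (Cdca8). Incenp had 15.1, 13.5 and 16.0 CPM in controls and 28.8, 28.7 and 30.2 CPM after the Tug1 gapmer. This was a fold change of 1.97 with small spread in both groups (14.9 ± 1.30 against 29.3 ± 0.831 CPM, SD, n = 3; log2 0.97, SE 0.0873, edgeR adjusted p 1.71e-09). Birc5 had 2.30, 2.55 and 2.08 CPM in controls and 5.44, 3.18 and 4.53 CPM after the Tug1 gapmer, with wide spread among the knockdown libraries (0.92, SE 0.225, adjusted p 0.00113). Cdca8 had 2.84, 3.33 and 3.93 CPM in controls and 5.44, 4.44 and 4.98 CPM after the Tug1 gapmer, again with no overlap (0.56, SE 0.188, adjusted p 0.0132). Aurkb, the catalytic subunit, was at 0.27 (95% interval -0.03 to 0.58) and did not pass.

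At the centromere and kinetochore all 5 members were higher, beside 30.8% of all tested genes. This held for no other role group, but it depends on the grouping. The kinetochore kinase Bub1, placed with the checkpoint, did not pass. Cenpe, a kinesin that carries chromosomes to the spindle equator, had 6.14, 4.41 and 5.09 CPM in controls and 11.0, 7.40 and 11.6 CPM after the Tug1 gapmer. Tug1 gapmer library 2 was the lowest of its group but still above all controls (0.94, SE 0.170, edgeR adjusted p 4.91e-05). Cenpf, a large kinetochore protein of late G2, had 5.98, 6.97 and 6.79 CPM in controls and 11.2, 12.1 and 13.4 CPM after the Tug1 gapmer, with every value above all controls (0.89, SE 0.128, adjusted p 2.33e-06). Ndc80, the microtubule-binding subunit of the outer kinetochore, had 4.83, 4.80 and 5.32 CPM in controls and 9.06, 7.40 and 9.21 CPM after the Tug1 gapmer (0.78, SE 0.148, adjusted p 8.46e-05). Its partner Nuf2 was higher by 0.53 (adjusted p 0.0161) and Cenpa, the histone H3 variant of centromeres, by 0.64 (adjusted p 0.00424).

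Spindle assembly held some of the largest changes beside 2 genes that did not pass. Tpx2, which activates Aurka on spindle microtubules and nucleates them near chromosomes, had 11.2, 8.36 and 9.64 CPM in control libraries 1 to 3 and 23.8, 22.9 and 25.1 CPM in Tug1 gapmer libraries 1 to 3. The lowest knockdown value was more than 2-fold the highest control value, and the fold change was 2.46 (log2 1.30, SE 0.105, edgeR adjusted p 3.53e-10). Nusap1, which bundles spindle microtubules, had 2.84, 3.56 and 3.01 CPM in controls and 6.52, 5.77 and 7.63 CPM after the Tug1 gapmer (1.08, SE 0.179, adjusted p 1.62e-05). Dlgap5, which stabilises kinetochore fibres, had 4.22, 5.57 and 5.40 CPM in controls and 7.90, 8.06 and 9.97 CPM after the Tug1 gapmer (0.77, SE 0.155, adjusted p 0.000161). In these 3 genes the groups did not overlap. Hmmr, a spindle protein also known as a hyaluronan receptor, was higher by 0.66 (adjusted p 0.00645). Aspm, which focuses spindle poles, was at -0.13 (95% interval -0.38 to 0.12) and Ckap2, a microtubule-associated protein, at -0.09 (-0.33 to 0.14). The intervals of both exclude the median rise of the members.

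Of 4 midzone and cytokinesis genes 3 were higher. Anln (anillin), which links the contractile ring to the membrane, had 7.67, 6.19 and 8.02 CPM in controls and 11.2, 10.3 and 11.6 CPM after the Tug1 gapmer, with a clear gap between the groups (0.59, SE 0.131, edgeR adjusted p 0.000405). Ect2, the exchange factor that activates RhoA at the midzone, had 5.52, 4.57 and 4.40 CPM in controls and 7.03, 5.62 and 6.19 CPM after the Tug1 gapmer. Its closest values across groups, in control library 1 and Tug1 gapmer library 2, nearly met (0.38, SE 0.162, adjusted p 0.0465). Prc1, which bundles the central spindle, had 11.1, 11.5 and 13.7 CPM in controls and 16.0, 13.8 and 15.9 CPM after the Tug1 gapmer (0.33, SE 0.111, adjusted p 0.0127). Control library 3 and Tug1 gapmer library 2 were within a narrow margin there too. Racgap1, the centralspindlin subunit that recruits Ect2, was at 0.08 (95% interval -0.23 to 0.38).

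Of the genes that shape mitotic chromosomes, 4 of 5 were higher. Top2a, the DNA topoisomerase that untangles sister chromatids, had 8.74, 6.89 and 6.79 CPM in control libraries 1 to 3 and 18.8, 17.6 and 19.4 CPM in Tug1 gapmer libraries 1 to 3. This was the largest change of any member, a fold change of 2.49 (7.47 ± 1.10 against 18.6 ± 0.923 CPM, SD, n = 3; log2 1.32, SE 0.116, edgeR adjusted p 1.37e-09). Ncapg, a subunit of condensin I, had 2.15, 1.63 and 2.16 CPM in controls and 4.20, 3.99 and 3.40 CPM after the Tug1 gapmer (0.96, SE 0.220, adjusted p 0.000594). Smc2, a core ATPase shared by both condensins, had 16.2, 17.2 and 18.7 CPM in controls and 22.2, 22.6 and 26.4 CPM after the Tug1 gapmer (0.45, SE 0.0937, adjusted p 0.000235). Its partner Smc4 was higher by 0.24 (SE 0.0678, adjusted p 0.00383), and Ncaph, the kleisin of condensin I, was at 0.37 (95% interval -0.06 to 0.79) and did not pass. In each of these 5 genes all knockdown values were above all control values.

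Mki67, the gene of the proliferation marker Ki-67 that coats mitotic chromosomes, had 25.2, 26.1 and 26.4 CPM in controls and 32.0, 32.9 and 39.0 CPM after the Tug1 gapmer. The controls were within a narrow range and Tug1 gapmer library 3 was the highest (0.42, SE 0.0822, edgeR adjusted p 0.000125). Foxm1, a transcription factor that activates many G2/M promoters, had 7.13, 7.82 and 7.94 CPM in controls and 5.22, 6.88 and 7.78 CPM after the Tug1 gapmer. The groups overlapped, and its log2 fold change of -0.21 (95% interval -0.52 to 0.11) did not pass.

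**Figure D4:**
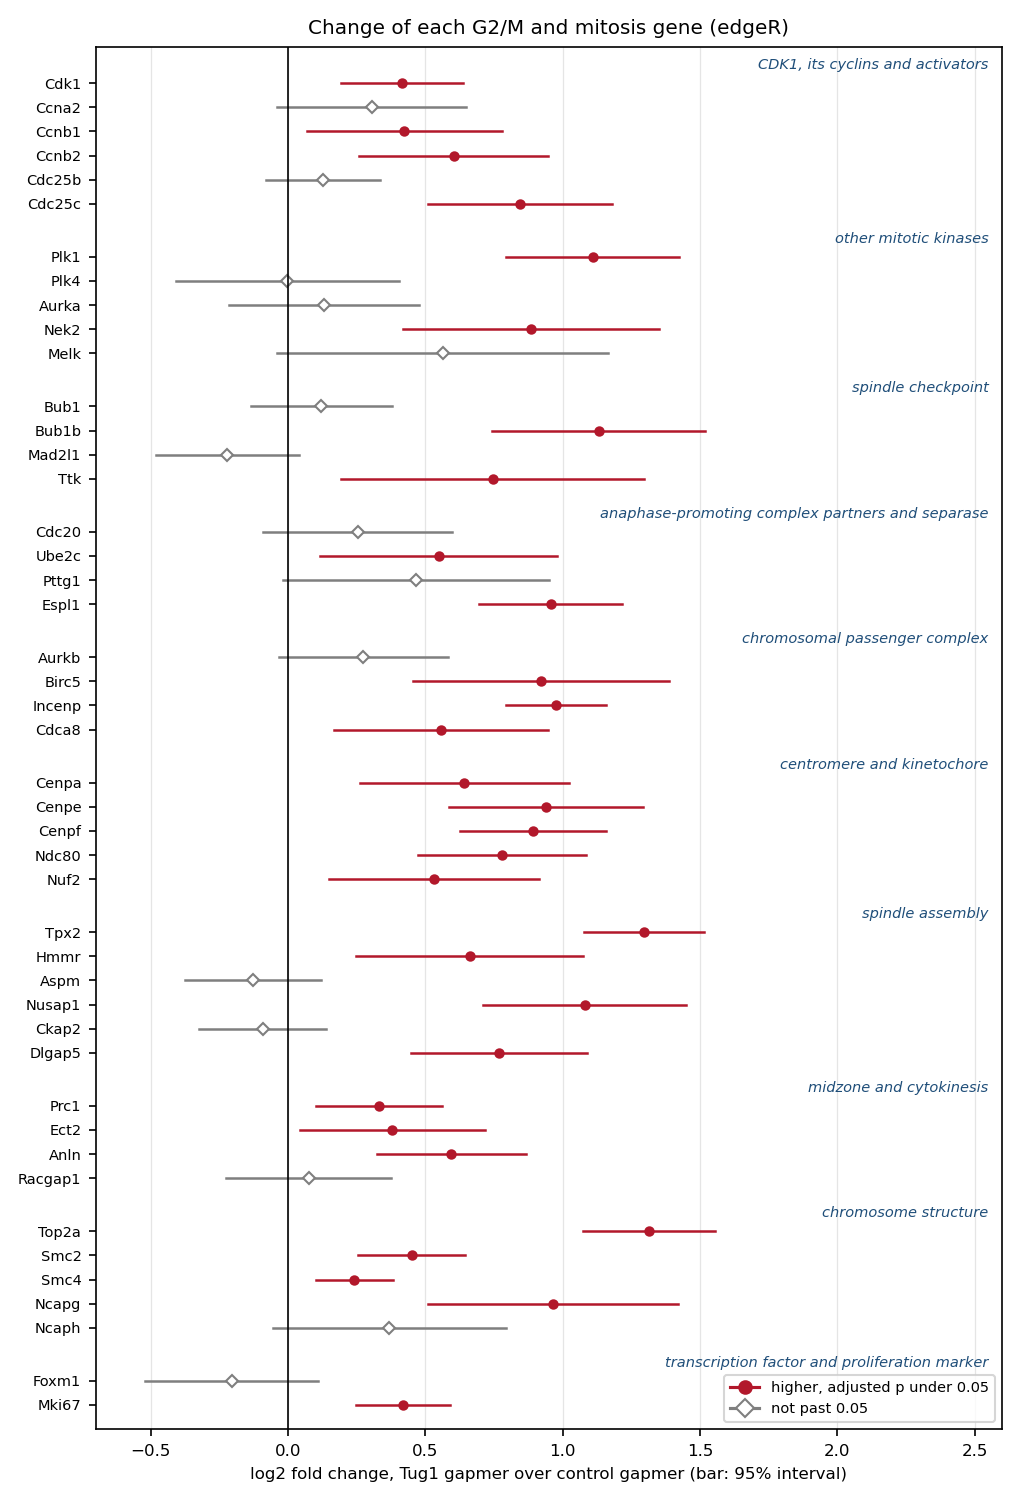
Log2 fold change of each member (Tug1 gapmer over control gapmer) with its 95% interval, by role; filled circles passed an adjusted p of 0.05 and open diamonds did not. All 30 filled circles lie to the right of 0, from 0.24 (Smc4) to 1.32 (Top2a), and the open diamonds run from -0.22 (Mad2l1) to 0.56 (Melk).

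Many proteins of this programme act together, so the ratio of 2 transcripts was compared within each library for 11 pairs. Ccnb1 with Ccnb2 and Cdc25b with Cdc25c are pairs of related genes and not of partners, and both are among the pairs counted as apart below. As CPM is not per length, only the change of a ratio can be read. The log2 ratio of Aurka to its activator Tpx2 was -1.06, -0.08 and -0.68 in control libraries 1 to 3 and -2.04, -1.46 and -1.84 in Tug1 gapmer libraries 1 to 3, a difference of -1.17. For Bub1 over Bub1b it was 1.99, 1.48 and 2.30 in controls and 0.81, 1.07 and 0.88 after the Tug1 gapmer, a difference of -1.004. For Aurkb over Incenp it was -1.56, -1.05 and -1.33 in controls and -1.92, -2.12 and -1.99 after it, a difference of -0.70. In all 3 pairs the ratio of the kinase transcript to its partner was lower in every Tug1 gapmer library than in every control library. Ncapg over Ncaph differed by 0.62 and also did not overlap, whereas Ndc80 over Nuf2 differed by 0.22 with overlapping groups. In 7 of the 11 pairs the groups were apart, each at an exact permutation p of 0.1 (two-sided, adjusted p 0.157 over 11 pairs), the smallest that 3 against 3 libraries allow. Single genes were also often apart in these libraries, 33.0% of all tested genes above and 32.6% below, so the count of pairs is not read as a result about partner ratios.

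Other genes of the same machinery, in 7 lists of 142 genes of which 139 were tested, were higher in 70 cases and lower in 21, again beside 30.8% and 30.9% of all genes. They did not move evenly. Of 33 other kinetochore genes 18 were higher and 2 lower (median 0.48). The constitutive centromere subunit Cenph (1.58) and the centromere loading factor Mis18a (1.46) had the highest log2 fold changes, and Bub3 (-0.28) and Knl1 (-0.31), which dock the checkpoint, were the 2 lower ones. Without Tug1 gapmer library 1 the adjusted p of Knl1 was 0.107. Of 12 mitotic kinesins 8 were higher and 1 lower (median 0.71), led by Kif14 (1.75) and Kif4a (1.32); Kif20a rose by 0.42 and Kif18a fell (-0.85). Of 29 other spindle, centrosome and cytokinesis genes 18 were higher and 5 lower (median 0.61), from Shcbp1 (1.38) and the centriole gene Cenpj (1.35) to Fam83d (-0.69) and the centriole cartwheel gene Sass6 (-0.74).

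In the next 3 lists the medians were nearer 0. Of 17 genes of the anaphase-promoting complex and its regulators 7 were higher and 3 lower (median 0.10), with the scaffold Anapc1 at 0.83 and Anapc2 at 0.53 against Cdc16 at -0.50 and the inhibitor Fbxo5 (Emi1) at -0.66. Of 18 tested cohesin and other condensin genes 9 were higher and 1, Stag2 (-0.45), lower (median 0.20). The acetyltransferase Esco2 (0.71), the cohesin loader Mau2 (0.69) and the condensin II gene Ncaph2 (0.22) were among the higher ones. The call of Esco2 ended with DESeq2 (adjusted p 0.0936), with the replicate block (adjusted p 0.0504), and without control library 2 (0.111), control library 3 (0.138), Tug1 gapmer library 2 (0.0821) or Tug1 gapmer library 3 (0.166). That of Ncaph2 ended without control library 1 (0.0653). Of 17 genes that control mitotic entry 5 were higher and 6 lower (median -0.11). These shares, 29.4% and 35.3%, were near the 30.8% and 30.9% of all tested genes. Mastl (0.80), the Greatwall kinase that protects mitotic phosphorylation, and Mnat1 (0.56) were higher. Wee1 (-0.69), the kinase that holds Cdk1 inactive, and Bora (-1.05), the cofactor through which Aurka activates Plk1, were lower.

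Transcripts of the MuvB complex and of genes that act with it or are related to these were looked at as well. Only their RNA was measured, and no protein. Of 13 MuvB, DREAM and B-Myb genes 5 were higher and 3 lower (median -0.01). These shares of 38.5% and 23.1% stand beside 30.8% and 30.9% of all tested genes. Mybl2, which encodes B-Myb, had 3.91, 3.41 and 3.39 CPM in controls and 10.2, 9.62 and 8.61 CPM after the Tug1 gapmer (1.41, SE 0.152, edgeR adjusted p 3.65e-08), a log2 fold change above that of each member. Tfdp2, a partner of E2F proteins, was higher too (log2 fold change 1.00). The lower genes were E2f5 (-1.07), Rbl1 (p107, -0.39) and Rbbp4 (-0.35), and the other higher ones Lin52 (0.47), Lin37 (0.25) and the retinoblastoma gene Rb1 (0.46). The DREAM repressor genes Rbl2 (-0.02) and E2f4 (-0.01), and Lin9 (-0.21), Lin54 (0.09) and Tfdp1 (-0.04), did not pass. Genes of this list other than Mybl2, Tfdp2, E2f5 and Rbl1, and the muscle and fibroblast markers above, were named after their values were seen. The call of Lin37 ended with DESeq2 (adjusted p 0.0653) and without control library 1 (0.0668), control library 2 (0.0573), Tug1 gapmer library 2 (0.0591) or Tug1 gapmer library 3 (0.0535).

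Genes of the preceding phase were called about as often in each direction as all genes. Of 42 G1/S and replication genes 11 were higher and 14 lower, with a median of 0.04. These shares of 26.2% and 33.3% stand beside 30.8% and 30.9% of all tested genes. The licensing gene Cdc6 (1.84) and Cdc45 (1.02), whose product joins the loaded helicase when origins fire, were the highest, and the licensing gene Cdt1 (-0.97) and the histone chaperone gene Chaf1b (-1.18) the lowest. Among 6 tested CDK inhibitor genes Cdkn2b, an inhibitor of the cyclin D kinases, fell from 305 ± 4.50 to 97.0 ± 1.69 CPM (SD, n = 3; -1.65), Cdkn2a was lower at -0.19, and Cdkn1a (p21) was at 0.11, called higher (adjusted p 0.0216). The calls of Cdkn1a and Cdkn2a ended under several alternatives, with adjusted p up to 0.114 for Cdkn1a (without control replicate 1; 0.0606 without Tug1 gapmer library 2 and 0.0554 with no filter) and up to 0.0698 for Cdkn2a (gene length offset with replicate block). No test of the difference between lists was made.

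**Figure D5:**
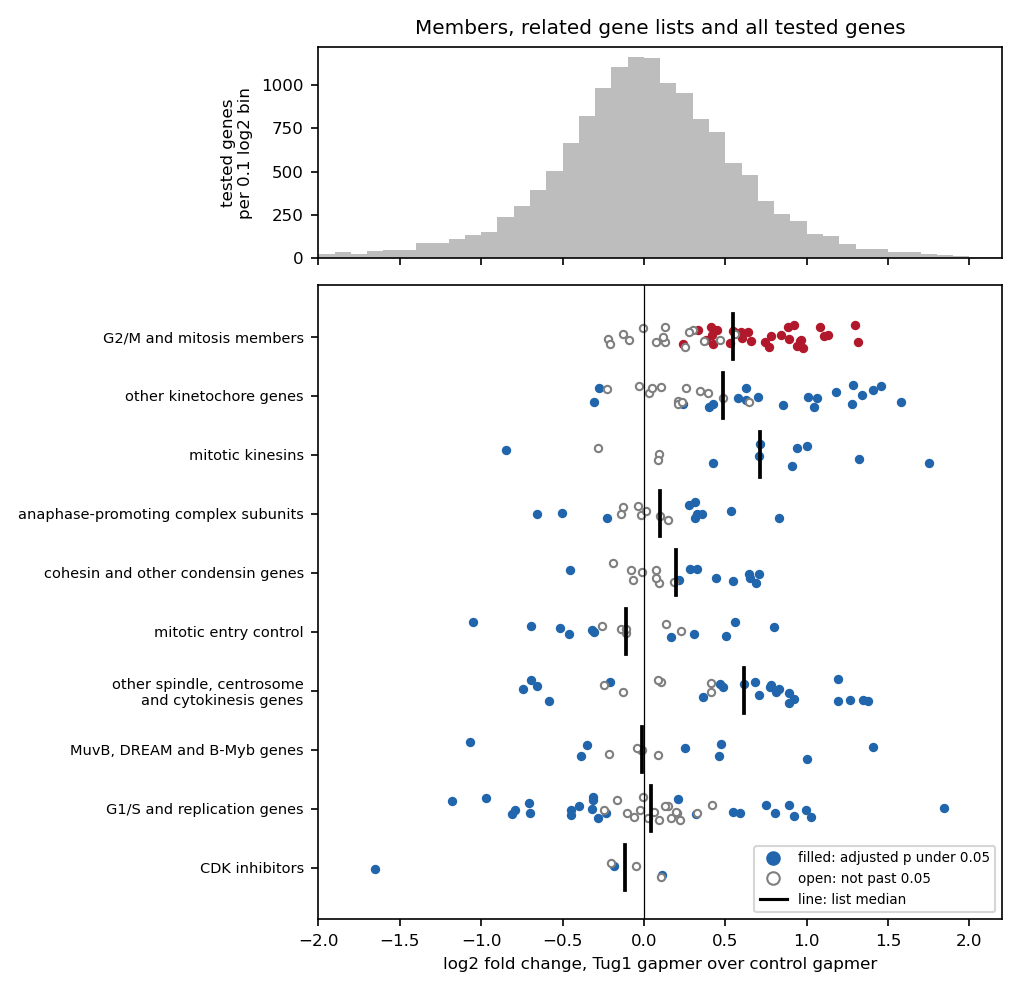
Top, log2 fold changes of all tested genes in bins of 0.1, without the far tails; bottom, the members and 9 related lists, 1 point a gene, filled where the adjusted p was under 0.05, with the list median as a black line. The median was 0.55 for the members and 0.71 for the kinesins, against 0.04 for G1/S genes and -0.11 for mitotic entry control.

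Of the 30 calls, 7 ended with another test or without a library, as the following adjusted p show. Ect2 ended with DESeq2 (0.125), limma-voom (0.0519), no filter (0.0667) and an offset for gene length (0.172), and without control library 2 (0.123), control library 3 (0.14), Tug1 gapmer library 1 (0.179) or Tug1 gapmer library 3 (0.0731). Ccnb1 ended with DESeq2 (0.0852) and limma-voom (0.0582), and without control library 2 (0.0844), control library 3 (0.131), Tug1 gapmer library 1 (0.135) or Tug1 gapmer library 3 (0.156). For Ube2c this held with DESeq2 (0.0842) and without control library 2 (0.0751), control library 3 (0.118), Tug1 gapmer library 1 (0.0558) or Tug1 gapmer library 3 (0.0722). For Nuf2 it held with the length offset (0.0595) and without control library 2 (0.0859), control library 3 (0.0650) or Tug1 gapmer library 3 (0.0680). Ttk, among the members with the fewest counts, ended with DESeq2 (0.0604) and without control library 2 (0.0960) or Tug1 gapmer library 2 (0.0986). Cdca8 ended without control library 1 (0.0690) or Tug1 gapmer library 1 (0.0541), and Prc1 without control library 1 (0.0721) or control library 2 (0.0520). Each of these 7 members kept a positive log2 fold change in every alternative run. Among the other 23 were the 5 members at least 2-fold higher.

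Log2 fold changes were higher in long genes, with a Spearman correlation between log2 fold change and genomic span of 0.269 over 13084 tested genes, a description across genes that are not independent. The median span was 27.1 kb for the members and 22.4 kb for all tested genes. With an offset that removes this trend, the median of the members was 0.52 and 32 members were called higher; Ccna2 (0.42, adjusted p 0.0305), Cdc20 (0.41, adjusted p 0.0344), Pttg1 (0.54, adjusted p 0.0468) and Aurkb (0.39, adjusted p 0.0254) gained a call and Ect2 and Nuf2 lost theirs. Of the members, 3 share part of their span with a more abundant gene: Nusap1 with Ndufaf1 (mean of 240 counts against 65.2), Ncapg with Lcorl (252 against 39.0) and Aurka with Fam210b (520 against 89.2). Whether counting used strand is not given in the sources used here, so the values of these members are uncertain. The neighbours' log2 fold changes were 0.01, 0.30 and -0.48.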

How the data were processed

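The deposited table holds counts per gene in a separate column for each of the 6 libraries. The values are whole numbers and not normalized. Per the labels' protocols, stranded libraries were made from 500 ng of poly-A selected RNA with integrity numbers of at least 9. FastQC 0.11.7, fastp 0.14.1 and STAR 2.5 are named in the submitters' processing notes. The counting tool, genome build, annotation and use of strand are not given in the sources used here.

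The analysis used edgeR 4.0.16 under R 4.3.3: expression filter (minimum count 10, minimum total 15), TMM scaling, and the quasi-likelihood test on all 6 libraries without a block, two-sided, with Benjamini-Hochberg adjustment over 14216 tested genes and a threshold of 0.05. A gene not past it is called not changed or not passed. SE is the log2 fold change divided by the square root of the F statistic, and group values are mean CPM with the sample SD. Replicates of a group differed by more than sampling noise (chi-square per degree of freedom 2.15 to 3.55). The members and lists were chosen with earlier results of these data known. Named by rule were, in each role group, up to 3 called members with the largest absolute log2 fold change (values per library), and in each related list the 2 highest and 2 lowest called genes. Gene spans and promoters came from RefSeq tables (GRCr8), with spans for 92.0% of tested genes. Alternatives were DESeq2 1.42.0, limma-voom (limma 3.58.1), other scalings and filters, an adjusted p under 0.01, a replicate block, a length offset (lowess, span 0.3), and leaving out each library. On simulated counts for this comparison (14216 genes), the edgeR step recovered 75.0% of 100 genes changed by 0.5 and 88.0% of 100 changed by 1 on the log2 scale. There all other genes were unchanged and every gene had the same dispersion (biological coefficient of variation 0.0472). In the data 61.7% of genes were called and the spread differs by gene, so these rates need not hold for the data.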

Additional observations from a re-analysis of the deposited data

How the results depend on the processing

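The count of members called higher ran from 23 (adjusted p under 0.01) to 32 (gene length offset), with 26 by DESeq2's Wald test, 28 by limma-voom and 24 (without control library 2) to 29 (without Tug1 gapmer library 2) on leaving out a library; the count of members called lower was 0 in every alternative. All changed genes numbered between 7353 and 8987 (8128 and 8410 on leaving out a library), and Tug1 lay between -2.22 and -2.07 (-2.22 and -2.15 on leaving out a library). Of 675 combinations of the 45 members with 15 alternatives (the stricter threshold of 0.01, under which 23 of the 30 calls held, is not among them), 32 lost a call, 7 gained one and 11 changed sign, all 11 in members that were not called: Plk4 (library totals 0.0492, limma-voom 0.0038, length offset 0.0311, with replicate block 0.0344, without control replicate 2 or 3 0.0251 and 0.1164, without Tug1 gapmer library 2 0.1029), Aurka and Ckap2 (without Tug1 gapmer library 2, -0.0027 and 0.0026) and Racgap1 (without control replicate 3 -0.0092, without Tug1 gapmer library 3 -0.022). On leaving out a library these 4 lay between -0.1436 and 0.1164 (Plk4), -0.0027 and 0.3019 (Aurka), -0.1546 and 0.0026 (Ckap2) and -0.022 and 0.225 (Racgap1). Signs also changed for 4 uncalled genes of the MuvB and DREAM list: with library totals for Rbl2 (0.0364), E2f4 (0.0408) and Tfdp1 (0.011), with the length offset, without and with the block, for Lin54 (-0.0711, -0.0726) and E2f4 (0.0989, 0.0987), and on leaving out a library, between -0.0119 and 0.1653 (Lin54), -0.0604 and 0.0174 (Rbl2), -0.0664 and 0.0161 (E2f4) and -0.1086 and 0.0086 (Tfdp1). Of 35 related genes named by rule, 30 kept direction and call in each alternative and 0 changed sign. Counts of 5 or fewer moved most: lower kinetochore genes from 2 to 1 at an adjusted p under 0.01 and 1 or 2 on leaving out a library; lower kinesins from 1 to 2 and lower cohesin and condensin genes from 1 to 4 (5 with the replicate block) with the length offset; CDK inhibitors, higher, from 1 to 0 with no filter or at 0.01, to 2 with the length offset (2 under the block as well), and 0 or 1 on leaving out a library; CDK inhibitors, lower, from 2 to 1 with library totals or the length offset, block or not. For each of these changes the cause was not tested.

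Deviations from the group mean were correlated across genes between control and Tug1 gapmer libraries. For libraries that share number 1, 2 or 3 the correlation was -0.0079, 0.0408 and 0.0368. Between libraries with different numbers it lay between -0.0476 and 0.0115. Numbers 2 and 3 thus had the highest values, but all values were small. The labels do not say that the numbers mark a pairing, and they were not taken as one. With the replicate block 30 members were called higher, as without it, and the same 30 genes were called. Depth limits the members with the lowest levels, such as Melk, whose lowest count in a library was 12. With 3 libraries a group, intervals reflect these 6 libraries alone.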
